A study of Mus musculus with 12 samples.

Results

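The genes examined were 10 of the vitamin A and vitamin D pathways in RNA-seq of mouse type 1 conventional dendritic cells (cDC1): Vdr, Aldh1a2, Cyp27b1, Cyp24a1, Rara, Rarg, Rxra, Rxrb, Rdh10 and Crabp2. They are 10 of the 53458 genes that the deposited transcripts map to, of which 31027 had a count in at least 1 library. Most were taken for their known roles in the pathways, but Vdr was picked because its level followed the CD40 agonist in these libraries, and Aldh1a2 because its level followed the tumor. For Vdr in the agonist comparisons and for Aldh1a2 in the tumor comparisons, and for both in the interaction, the values are therefore a description without a test.

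Vitamin A is oxidised in cells in steps, from retinol to retinal and then to retinoic acid, which binds the RAR receptors. Vitamin D is hydroxylated in steps to calcitriol, which binds VDR. Both receptors act on DNA as pairs with an RXR partner, and dendritic cells of some tissues, above all the gut, are known for making retinoic acid and handing it to T cells as they present antigen.

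The cells came from inguinal lymph nodes, and 12 libraries fall into 4 groups of 3. Tumor-CD40 is from mice with a subcutaneous KPC tumor (a mouse pancreatic cancer model) that received a CD40 agonist, a stand-in for the helper T cell signal that activates dendritic cells. NoTumor-CD40 had the agonist and no tumor, Tumor-NoCD40 had the tumor and no agonist, and NoTumor-NoCD40 had neither. The labels used here give no strain, age, dose, time or sort gate, and do not say whether libraries of a group are separate animals, so the p-values measure the spread between these samples, which may be technical. Library numbers 1 to 3 follow a date-like prefix of the titles, and the labels do not say what it dates. Libraries of the same number share a prefix, except NoTumor-NoCD40 library 3, which has its own.

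Depth was 22855143 to 27163393 expected counts (read counts estimated per transcript), with reads assigned to 20167 to 22523 genes per library. The 15 genes that mark cDC1 were all detected, and their sum in CPM (read counts per library, scaled by depth) was 5404 to 7319 in Tumor-CD40, 3613 to 10654 in NoTumor-CD40, 3019 to 14847 in Tumor-NoCD40 and 9833 to 13458 in NoTumor-NoCD40 libraries. The lowest sums were those of Tumor-NoCD40 library 3 and NoTumor-CD40 library 3, which share a title prefix. Values without both are given where they bear on a member. The 20 markers of mature or migratory dendritic cells summed to 15483 to 20013 CPM in Tumor-CD40, 18112 to 39180 in NoTumor-CD40, 8432 to 31138 in Tumor-NoCD40 and 7956 to 18982 CPM in NoTumor-NoCD40 libraries. B cell markers (16 genes) summed to 1233 to 3394 CPM in the Tumor-CD40 libraries and to 224 to 537 CPM in the other 9 libraries. In such bulk libraries fewer cells of a type and less RNA per cell cannot be told apart.

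Promoters are shown for Vdr and Aldh1a2, whose levels followed the agonist and the tumor. Also shown are Rxra, which was lower with the agonist on average but with overlap between libraries, and Cyp27b1, the enzyme that makes the ligand of VDR. Each sequence is a RefSeq window on GRCm38.p6, 5′ to 3′ on the gene's strand, from 250 bases before the RefSeq start site to 50 bases from it. Capitals mark the nuclear receptor half-site (A or G, then G, then G or T, then TCA), the GC box GGGCGG, and the TATA box (TATA followed by AA or TA), searched on both strands. The Vdr window is chr15:97908247-97908546 on the minus strand, the Aldh1a2 window chr9:71215539-71215838 on the plus strand, the Cyp27b1 window chr10:127047996-127048295 on the plus strand, and the Rxra window, which holds the start of the main Rxra transcript, chr2:27676951-27677250 on the plus strand.
Vdr: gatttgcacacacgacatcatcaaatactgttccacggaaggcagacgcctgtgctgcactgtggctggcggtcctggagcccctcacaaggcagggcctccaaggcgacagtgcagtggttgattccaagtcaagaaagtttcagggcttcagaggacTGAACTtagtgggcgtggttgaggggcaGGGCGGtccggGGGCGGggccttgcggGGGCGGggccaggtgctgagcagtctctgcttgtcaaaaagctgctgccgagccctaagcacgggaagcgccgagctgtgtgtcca
Aldh1a2: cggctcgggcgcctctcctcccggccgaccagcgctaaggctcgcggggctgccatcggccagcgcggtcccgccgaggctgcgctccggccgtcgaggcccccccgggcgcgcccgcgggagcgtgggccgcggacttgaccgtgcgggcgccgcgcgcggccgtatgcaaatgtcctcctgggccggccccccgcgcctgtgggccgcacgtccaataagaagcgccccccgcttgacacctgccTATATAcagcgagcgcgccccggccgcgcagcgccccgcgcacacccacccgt
Cyp27b1: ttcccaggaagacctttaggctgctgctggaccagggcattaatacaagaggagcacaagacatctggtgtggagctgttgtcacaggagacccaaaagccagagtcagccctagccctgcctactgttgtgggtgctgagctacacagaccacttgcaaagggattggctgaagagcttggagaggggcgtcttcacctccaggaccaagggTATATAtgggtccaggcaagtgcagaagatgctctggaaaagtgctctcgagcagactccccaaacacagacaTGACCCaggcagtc
Rxra: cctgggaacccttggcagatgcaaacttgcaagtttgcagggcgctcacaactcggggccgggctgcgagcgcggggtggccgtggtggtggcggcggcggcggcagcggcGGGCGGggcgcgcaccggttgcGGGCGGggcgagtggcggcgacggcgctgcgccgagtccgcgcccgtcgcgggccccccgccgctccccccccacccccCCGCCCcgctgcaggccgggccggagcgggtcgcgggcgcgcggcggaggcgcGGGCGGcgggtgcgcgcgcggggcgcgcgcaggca

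The Vdr window holds 1 half-site, AGTTCA read on the opposite strand, which begins 91 bases before the start site, and 3 GC boxes 63, 52 and 36 bases before it. The Aldh1a2 window holds no half-site and no GC box, and TATATA 3 bases before its start site. The Cyp27b1 window holds the half-site GGGTCA on the opposite strand and TATATA 37 bases before the start site. The Rxra window shown holds 4 GC boxes and no half-site. The other Rxra window, chr2:27709042-27709341, is not shown and holds 3 half-sites and no GC box. TATATA reads the same on both strands, and none of the marked motifs overlap another in the 4 windows shown.

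Windows were found for 7 of the 10 genes, 13 windows in all; Cyp24a1, Rdh10 and Crabp2 are named only. None of the 13 held half-sites in direct repeat with a gap of 3 bases, the spacing VDR and RXR bind, or of 2 or 5 bases, the spacings of RAR and RXR. Of the 13, 6 held a half-site, 8 a GC box and 2 a TATA box. Of all 32851 RefSeq windows of this length, 43.7% hold a half-site, 35.7% a GC box and 17.1% a TATA box. Direct repeats with a gap of 3, 2 and 5 bases are in 0.0396%, 0.268% and 0.0974% of them. The NF-kB consensus was in 5 of the 13, which were 3 Rara windows, a pair of which overlap, and 2 Rxrb windows, and it is in 8.46% of all windows. GAAA repeated after a gap of 2 bases, the core of interferon response elements, was in 1 of the 13, a Rarg window, and is in 3.44% of all. Neither was in the 4 windows shown. These are matches of letters and say nothing of binding.

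Levels between genes were compared in TPM, which takes account of transcript length. Averaged over the 12 libraries, Rxrb stood at 15.1 TPM, Rara at 11.4, Vdr at 6.05, Rarg at 4.20, Rxra at 3.95, Aldh1a2 at 3.66, Rdh10 at 1.03, Cyp27b1 at 0.304 and Crabp2 at 0.224 TPM, with no count of Cyp24a1. The receptors were thus above the enzymes and the carrier, except that Aldh1a2 lay close to Rxra and Rarg. Neighbours in this order mostly lay within each other's spread between libraries: Rxrb ran from 10.9 to 21.5 TPM and Rara from 5.45 to 19.9 TPM, while Rarg ran from 1.42 to 13.2, Rxra from 1.78 to 7.19 and Aldh1a2 from 0.849 to 9.30 TPM.

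Vdr and Aldh1a2 changed place in the order between groups. Vdr averaged 7.88 ± 3.51 TPM in Tumor-CD40 and 13.9 ± 5.73 TPM in NoTumor-CD40 libraries, next to Rara and Rxrb, against 1.38 ± 0.255 TPM in Tumor-NoCD40 and 1.06 ± 0.462 TPM in NoTumor-NoCD40 libraries, next to Rdh10 (SD, n = 3 each). Aldh1a2 averaged 3.94 ± 0.915 TPM in Tumor-CD40, 1.41 ± 0.540 in NoTumor-CD40, 8.01 ± 1.78 in Tumor-NoCD40 and 1.27 ± 0.468 TPM in NoTumor-NoCD40 libraries. These are levels of genes chosen for those patterns.

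**Figure D1:**
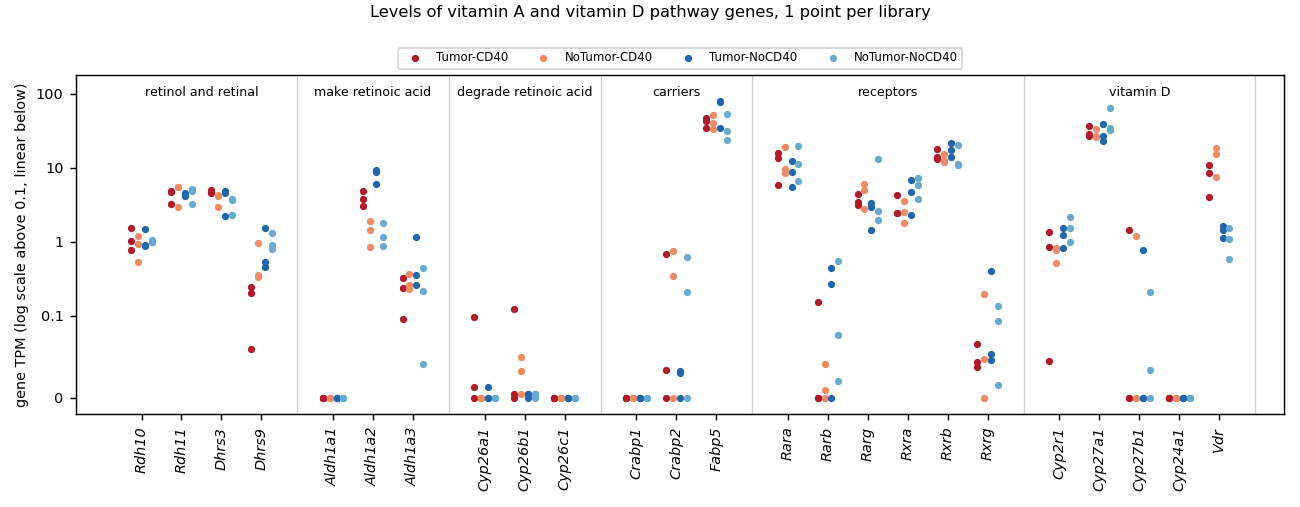
Gene levels in TPM (vertical axis, logarithmic above 0.1 and linear below) for members and other genes of the vitamin A and vitamin D pathways, 1 point per library, coloured by group. Aldh1a2 is the retinoic acid enzyme with at least 0.849 TPM in every library, and the points of Aldh1a1 and Cyp24a1 all lie at 0.

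Rdh10 (chromosome 1, 16105774 to 16133734, plus strand) oxidises retinol to retinal, the step that limits retinoic acid in the mouse embryo. Rdh10 had 4.59, 4.25 and 3.92 CPM in Tumor-CD40 and 3.17, 4.87 and 3.57 CPM in NoTumor-CD40 libraries, against 5.41, 7.11 and 2.91 CPM in Tumor-NoCD40 and 6.62, 4.34 and 4.26 CPM in NoTumor-NoCD40 libraries. The groups overlapped throughout. The log2 fold change averaged over tumor states was −0.33 ± 0.28 (SE) for the agonist, and averaged over agonist states it was 0.07 ± 0.28 for the tumor (edgeR adjusted p = 0.566 and 0.992), with 95% intervals of −0.92 to 0.26 and −0.52 to 0.67 that leave room for changes of moderate size. In TPM, 30.2% of Rdh10 came from a transcript with a retained intron.

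Aldh1a2 (ENSMUSG00000013584) lies on chromosome 9 from 71215789 to 71296243 on the plus strand and encodes retinaldehyde dehydrogenase 2, which makes retinoic acid from retinal. Its reads came from a single annotated transcript of 14 exons. In CPM, Aldh1a2 stood at 11.5, 16.5 and 12.3 in Tumor-CD40 and at 5.47, 6.52 and 2.50 in NoTumor-CD40 libraries. It stood at 35.3, 30.9 and 18.5 CPM in Tumor-NoCD40 and at 6.89, 4.26 and 2.87 CPM in NoTumor-NoCD40 libraries. All 6 tumor libraries were above all 6 libraries without tumor. The log2 difference on which Aldh1a2 was chosen was 2.58 ± 0.37 (SE) without agonist, a fold of 5.99, and 1.48 ± 0.39 with agonist, a fold of 2.78. The agonist difference with tumor less that without was −1.11 ± 0.55 for Aldh1a2, likewise a description.

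The agonist comparisons did not choose Aldh1a2, although they share libraries with the tumor comparisons that did. Tumor-NoCD40, the group with the most Aldh1a2, is the baseline of the agonist comparison with tumor. The choice can therefore make that difference more negative, and its p-value is not independent of the choice. Within tumor-bearing mice the 3 Tumor-CD40 libraries lay below the 3 Tumor-NoCD40 libraries, with no overlap. The log2 fold change was −1.07 ± 0.33 (SE), with a 95% interval of −1.78 to −0.35, but it did not pass the threshold over all genes (edgeR adjusted p = 0.234). The difference was negative in each of the 3 pairs of libraries with a common title prefix, at −1.61, −0.90 and −0.58. Without a tumor, the agonist groups of Aldh1a2 overlapped and the log2 fold change was 0.04 ± 0.43 (edgeR adjusted p = 0.973).

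Aldh1a2 is set beside the mature dendritic cell and stromal markers here as a description. Tumor-NoCD40 library 2 had one of the lowest mature sums, 8432 CPM, and 30.9 CPM of Aldh1a2. NoTumor-CD40 library 3 had the highest mature sum, 39180 CPM, and the lowest Aldh1a2, 2.50 CPM. Other libraries went the other way. Tumor-NoCD40 library 1 had the most Aldh1a2, 35.3 CPM, with a mature sum of 25591 CPM, and library 3 had 18.5 CPM with 31138 CPM. NoTumor-NoCD40 library 3 had the lowest mature sum, 7956 CPM, and 2.87 CPM of Aldh1a2. Stromal cells of lymph nodes also express Aldh1a2. The 11 markers of fibroblasts or reticular stroma, all detected, summed to 46.7 to 108 CPM in Tumor-CD40, 48.9 to 67.6 in NoTumor-CD40, 38.3 to 153 in Tumor-NoCD40 and 52.5 to 71.7 CPM in NoTumor-NoCD40 libraries. In the 3 Tumor-NoCD40 libraries the stromal sums were 107, 38.3 and 153 CPM, beside 35.3, 30.9 and 18.5 CPM of Aldh1a2. Of these markers 7 were tested: 0 passed the threshold for the tumor without agonist, 6 of the 7 values were positive, and their median log2 fold change was 1.35, against −0.01 over all tested genes. With agonist 4 of the 7 were positive for the tumor, with a median of 0.12. In the 3 Tumor-NoCD40 libraries the 12 T cell markers summed to 651, 227 and 1137 CPM, in the same order as the stromal sums. The part of stromal or mature cells in the Aldh1a2 levels, and of T cells in the stromal sums, was not tested. Without Tumor-NoCD40 library 3 and NoTumor-CD40 library 3, the agonist difference within tumor-bearing mice was −1.28 on the log2 scale (edgeR adjusted p = 0.0726). That value is not independent of the choice of Aldh1a2 either.

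Crabp2 carries retinoic acid to the nucleus, where RAR takes it up. It had 1, 0 and 20 expected counts in Tumor-CD40 and 11, 23 and 0 in NoTumor-CD40 libraries, against 1, 0 and 1 in Tumor-NoCD40 and 0, 22 and 6 in NoTumor-NoCD40 libraries. It was thus counted in 8 of 12 libraries, in no pattern that follows the groups, and no fold change is given. The other carrier, Fabp5, which takes retinoic acid to PPAR-delta and also binds fatty acids, averaged 45.8 TPM and ran from 23.5 to 79.0 TPM. Crabp1 was at 0 in every library.

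Cyp27b1 makes calcitriol, the active form of vitamin D, and Cyp24a1 degrades it and is a textbook target of VDR. Cyp27b1 had 20, 0 and 0 expected counts in Tumor-CD40 and 0, 17 and 0 in NoTumor-CD40 libraries, against 0, 13 and 0 in Tumor-NoCD40 and 26, 4 and 0 in NoTumor-NoCD40 libraries. Every group had a library at 0 and none exceeded 26 counts. Of its TPM, 93.1% came from a processed transcript of 509 bases, and mainly in the NoTumor-NoCD40 libraries did the reads fall on the coding transcript.

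Cyp24a1 was at 0 in all 12 libraries, which at 3 counts per library allows up to 0.109 to 0.130 CPM, counting error only. That limit holds also in the agonist libraries with the most Vdr. Cyp24a1 was the one member that did not pass the filter on low counts. Cyp27b1 and Crabp2 passed it, but on a few libraries each.

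Vdr (ENSMUSG00000022479, chromosome 15, 97854425 to 97910630, minus strand) encodes the vitamin D receptor. It stood at 34.2, 72.7 and 42.1 CPM in Tumor-CD40 and at 79.8, 38.4 and 125 CPM in NoTumor-CD40 libraries. In Tumor-NoCD40 libraries it stood at 11.7, 5.57 and 8.17 CPM and in NoTumor-NoCD40 libraries at 9.41, 4.26 and 4.51 CPM. All 6 agonist libraries were above all 6 libraries without agonist, the lowest of the first at 34.2 and the highest of the second at 11.7 CPM. The log2 difference on which it was chosen was 2.56 ± 0.45 (SE) with tumor, a fold of 5.88, and 3.73 ± 0.47 without tumor, a fold of 13.3, so that the first less the second was −1.18 ± 0.64.

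Within prefixes the Vdr difference was 1.54, 3.69 and 2.36 on the log2 scale with tumor and 3.07 and 3.15 without. The coding transcript Vdr-201 held 77.6% of Vdr TPM, with the remainder on short transcripts in some libraries. The tumor comparisons did not choose Vdr but use the same libraries. With agonist, Tumor-CD40 and NoTumor-CD40 libraries overlapped, with a log2 fold change of −0.70 ± 0.40 (SE, edgeR adjusted p = 0.604). Without agonist it was 0.47 ± 0.51 (adjusted p = 0.834), and averaged over agonist states −0.11 ± 0.32, with a 95% interval of −0.81 to 0.58.

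**Figure D2:**
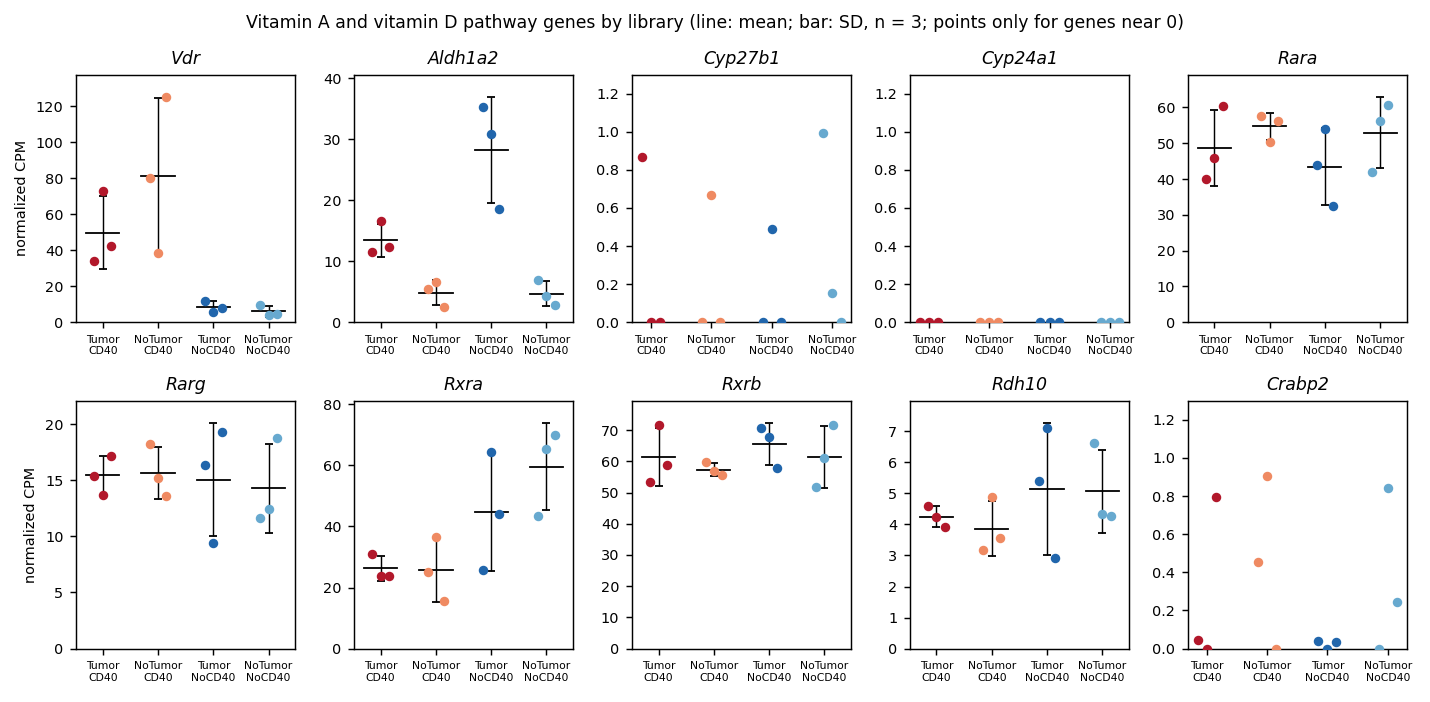
Normalized CPM (vertical axes, from 0) of the 10 members in each of the 12 libraries, by group; lines are means and bars SD of 3 libraries, with points only for the 3 genes near 0. All Vdr points with agonist lie above those without, all Aldh1a2 points with tumor above those without, and Cyp24a1 is at 0 throughout.

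Vdr was set beside the mature dendritic cell sum because CD40 drives maturation. NoTumor-CD40 libraries 3 and 1 had the most Vdr, 125 and 79.8 CPM, with mature sums of 39180 and 29913 CPM. Tumor-NoCD40 libraries 3 and 1 had mature sums of 31138 and 25591 CPM, and 8.17 and 11.7 CPM of Vdr. Tumor-CD40 library 2, with 16166 CPM of mature markers, had 72.7 CPM of Vdr, and NoTumor-NoCD40 library 1, with 18982 CPM, had 9.41 CPM. Since Vdr was chosen because the agonist libraries lay above the others, that order holds at any mature sum, and these values are a description of 12 libraries. The part of dendritic cell maturation in the Vdr levels was not tested.

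**Figure D3:**
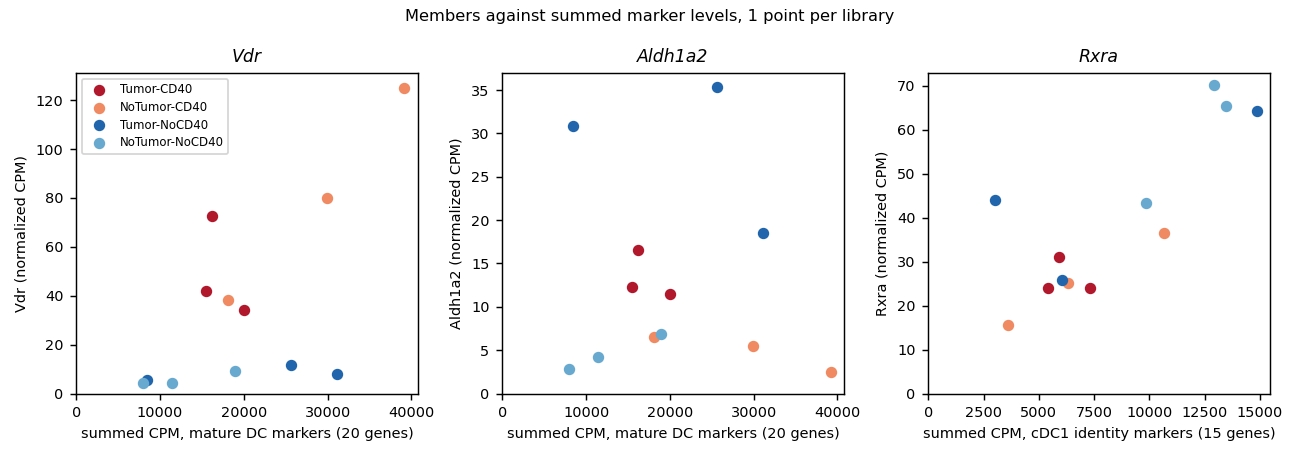
Normalized CPM of Vdr and Aldh1a2 against the summed CPM of 20 mature dendritic cell markers, and of Rxra against the sum of 15 cDC1 identity markers, 1 point per library. Tumor-NoCD40 library 3 has 31138 CPM of mature markers with 8.17 CPM of Vdr, and the 3 libraries with the highest identity sums have 64.3 to 70.1 CPM of Rxra.

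Rara (chromosome 11, 98927818 to 98974942, plus strand) encodes the alpha receptor of retinoic acid, the main one in most blood cells. Rara had 39.9, 45.8 and 60.4 CPM in Tumor-CD40 and 57.5, 50.3 and 56.3 CPM in NoTumor-CD40 libraries, against 43.8, 54.1 and 32.6 CPM in Tumor-NoCD40 and 41.9, 56.3 and 60.8 CPM in NoTumor-NoCD40 libraries. The groups overlapped in every comparison. Averaged log2 fold changes were 0.11 ± 0.16 (SE) for the agonist, with a 95% interval of −0.23 to 0.44, and −0.23 ± 0.16 for the tumor, with an interval of −0.56 to 0.11 (edgeR adjusted p = 0.766 and 0.901). In TPM, 32.0% of Rara came from a processed transcript of 307 bases, so that its TPM varied more than its CPM.

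Rarg encodes the gamma receptor, better known from skin and skeleton. It had 15.4, 13.7 and 17.2 CPM in Tumor-CD40 and 18.2, 15.2 and 13.6 CPM in NoTumor-CD40 libraries, against 16.4, 9.45 and 19.3 CPM in Tumor-NoCD40 and 11.6, 12.4 and 18.8 CPM in NoTumor-NoCD40 libraries. No group stood apart. The averaged log2 fold changes were 0.09 ± 0.20 (SE, interval −0.34 to 0.52) for the agonist and 0.03 ± 0.20 (interval −0.40 to 0.46) for the tumor (edgeR adjusted p = 0.853 and 0.997). The third RAR gene, Rarb, averaged 0.129 TPM and was at 0 in 3 agonist libraries and 1 other.

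Rxrb, one of the 3 RXR partners, was the steadiest member. It had 53.4, 71.6 and 59.0 CPM in Tumor-CD40 and 59.7, 57.0 and 55.5 CPM in NoTumor-CD40 libraries, against 70.8, 67.7 and 58.0 CPM in Tumor-NoCD40 and 51.7, 61.1 and 71.7 CPM in NoTumor-NoCD40 libraries. The lowest and highest of the 12 libraries were thus both in NoTumor-NoCD40. The averaged log2 fold changes were −0.10 ± 0.12 (SE, interval −0.36 to 0.16) for the agonist and 0.09 ± 0.12 (interval −0.17 to 0.35) for the tumor (edgeR adjusted p = 0.720 and 0.961).

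Rxra (chromosome 2, 27676440 to 27762957, plus strand), the RXR partner best known from myeloid cells and the skin, was lower with the agonist. It had 31.0, 23.9 and 23.9 CPM in Tumor-CD40 and 25.2, 36.4 and 15.6 CPM in NoTumor-CD40 libraries. It had 25.9, 64.3 and 44.0 CPM in Tumor-NoCD40 and 43.4, 65.3 and 70.1 CPM in NoTumor-NoCD40 libraries. Without tumor the agonist libraries all lay below those without agonist, and with tumor they overlapped through Tumor-NoCD40 library 1. Averaged over tumor states the log2 fold change was −0.99 ± 0.24 (SE), a fold of 1.99 lower, with a 95% interval of −1.50 to −0.48, and it passed the threshold (edgeR adjusted p = 0.0425).

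For the single agonist comparisons the Rxra log2 fold change was −0.77 ± 0.34 (SE) with tumor and −1.21 ± 0.33 without (edgeR adjusted p = 0.460 and 0.0920). The difference between them was 0.44 ± 0.47 (interaction, edgeR adjusted p = 0.765). Averaged over agonist states the tumor gave −0.19 ± 0.24 (adjusted p = 0.959). The averaged agonist call was close to the threshold. It was lost without Tumor-CD40 library 1, 2 or 3, NoTumor-CD40 library 1 or 3, Tumor-NoCD40 library 2 or 3, or NoTumor-NoCD40 library 2 or 3, with values of −1.06 to −0.82 and edgeR adjusted p = 0.0501 to 0.124. Over all 25 alternatives the value ran from −1.16 to −0.63 and passed the threshold in 7.

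Rxra is set beside the cDC1 identity sum here as a description. The libraries with the highest sums, Tumor-NoCD40 2 (14847 CPM) and NoTumor-NoCD40 2 and 3 (13458 and 12905 CPM), had the most Rxra, 64.3, 65.3 and 70.1 CPM, and NoTumor-CD40 library 3 had the least Rxra with a sum of 3613 CPM. Tumor-NoCD40 library 3 went the other way, with the lowest sum of all, 3019 CPM, and 44.0 CPM of Rxra. Within Tumor-CD40, library 2 had a sum of 7319 CPM and 23.9 CPM of Rxra, and library 1 a sum of 5926 CPM and 31.0 CPM of Rxra. The part of the cell makeup in the Rxra result was not tested. Without both libraries of lowest sum the averaged log2 fold change of Rxra was −0.86 (edgeR adjusted p = 0.0980). Within title prefixes the agonist difference was 0.26, −1.42 and −0.88 with tumor and −0.78 and −0.84 without.

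**Figure D4:**
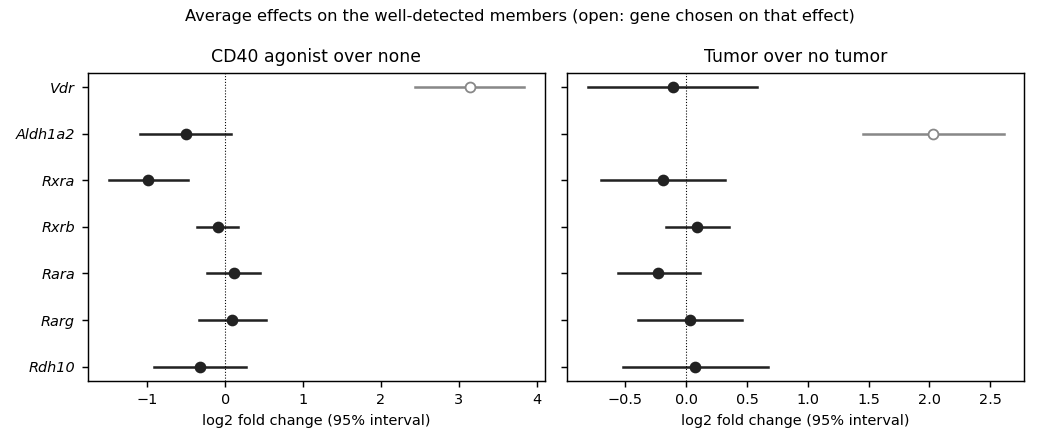
Log2 fold changes (horizontal axes) with 95% intervals for the 7 members counted in every library, for the agonist averaged over tumor states and the tumor averaged over agonist states. Open symbols mark the gene chosen on that effect. Of the filled symbols the Rxra interval for the agonist, −1.50 to −0.48, is the one that does not reach 0.

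Of the 9 members tested, those past the threshold are set here beside the share of all 18095 tested genes that passed it (edgeR, adjusted p under 0.05). With tumor the agonist called 1 member, Vdr, against 0.685% of all genes (124), and without tumor 1, again Vdr, against 1.44% (261). Averaged over tumor states it called 2, Vdr and Rxra, against 2.51% (454), of which 392 were higher and 62 lower. Since Vdr was chosen on these comparisons, Rxra is the 1 call among members that the choice did not fix.

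With agonist the tumor called 0 of the 9 members (1 with an unadjusted p under 0.05, Aldh1a2), against 0.199% of all genes (36). Without agonist it called 0 members and 0% of all genes, although 1053 genes had an unadjusted edgeR p under 0.05 and DESeq2 called 29. Averaged over agonist states the tumor called Aldh1a2 and 2 other genes, 0.0166% of all. Aldh1a2 was chosen on these tumor comparisons, so its calls, including that by DESeq2 in each of the 2 single comparisons, are a description and not a test. The averaged call of Aldh1a2 (edgeR adjusted p = 0.0471) passed in 10 of 25 alternatives. It was lost without Tumor-CD40 library 1 or 3, NoTumor-CD40 library 2 or 3, Tumor-NoCD40 library 1, or NoTumor-NoCD40 library 2 or 3, with values of 1.89 to 2.18 and edgeR adjusted p = 0.0569 to 0.250. The interaction called 0 members and 0% of all genes; 0 of the 9 members and 1773 of all genes had an unadjusted edgeR p under 0.05, and DESeq2 called 18 genes and no member.

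Around the members, 34 genes of vitamin A uptake, storage and metabolism were examined, of which 22 were tested. Aldh1a2, chosen on its tumor pattern, was the 1 past the threshold, for the tumor averaged over agonist states. The median log2 fold change of the 22 was −0.07 for the averaged agonist effect and 0.12 for the averaged tumor effect, against −0.03 and −0.01 over all tested genes. The most abundant were Adh5 (47.0 TPM), an alcohol dehydrogenase of broad substrate range, Dhrs4 (25.0 TPM), Dhrs7 (11.2 TPM), both short-chain dehydrogenases, and Dgat1 (8.16 TPM), which can esterify retinol. Of the enzymes that share the task of Aldh1a2, Aldh1a1 was at 0 in all libraries and Aldh1a3 averaged 0.331 TPM. The enzymes that degrade retinoic acid were near 0: Cyp26a1 averaged 0.0103 TPM and Cyp26b1 0.0192 TPM, and Cyp26c1 was at 0.

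Of 11 retinoid receptors and binding proteins 9 were tested, and Rxra was the 1 past the threshold, lower for the averaged agonist effect. The median of the 9 was −0.10, against −0.03 over all tested genes. The third RXR gene, Rxrg, averaged 0.0951 TPM. Of 13 vitamin D genes 10 were tested and Vdr alone passed, in the agonist comparisons that chose it. The median of the 10 was −0.17 for the averaged agonist effect. Pdia3 (363 TPM), a protein disulfide isomerase of the endoplasmic reticulum, and Cyp27a1 (33.4 TPM), a hydroxylase of sterols and vitamin D, were the most abundant, followed by Dhcr7 (1.53 to 43.1 TPM), which uses up the precursor of vitamin D, and Fdx1 (9.34 TPM), an electron carrier. Cyp2r1, the main hydroxylase of the first step, averaged 1.05 TPM.

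Of 12 other nuclear receptors that pair with RXR or belong to such families, 8 were tested and 0 passed the threshold by edgeR in the 7 comparisons. The most abundant were Nr1h2, a sterol receptor, at 73.7 TPM, and the early response genes Nr4a2 and Nr4a1 at 29.5 and 25.7 TPM. Nr4a2 ran from 2.64 to 95.6 TPM between libraries. In CPM the order of these genes turned, with averages of 13.8 for Nr4a2 and 81 for Nr4a1. Nr4a1 had a log2 fold change of −1.16 ± 0.38 (SE) for the averaged agonist effect (edgeR adjusted p = 0.136). Ppard, the receptor that Fabp5 serves, averaged 2.31 TPM.

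All 17 coregulators of nuclear receptors were tested, and 1 rose with the agonist, Ncoa7, a coactivator first described with estrogen receptors. Ncoa7 had 251, 395 and 213 CPM in Tumor-CD40 and 347, 317 and 411 CPM in NoTumor-CD40 libraries, against 146, 146 and 102 CPM in Tumor-NoCD40 and 112, 93.8 and 84.7 CPM in NoTumor-NoCD40 libraries. All 6 agonist libraries lay above the others. The log2 fold change was 1.12 ± 0.23 (SE) with tumor, 1.89 ± 0.24 without and 1.50 ± 0.17 averaged (edgeR adjusted p = 0.0440, 0.00299 and 0.000333). The averaged call held in 25 of 25 alternatives and that without tumor in 26 of 26. The call with tumor held in 9 of 26, and among the single libraries it was lost without Tumor-CD40 library 1 or 2, NoTumor-CD40 library 1, Tumor-NoCD40 library 1 or 3, or any NoTumor-NoCD40 library (0.81 to 1.20, adjusted p = 0.0548 to 0.154). Ncoa4 (155 TPM), Ncor1 (62.8), Snw1 (35.9) and Ncoa3 (33.2 TPM) were the other abundant ones.

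Of 16 genes known to respond to retinoic acid 13 were tested and 3 rose with the agonist averaged over tumor states, none fell, and 0 passed for the tumor by edgeR. The averaged agonist effect called 2.51% of all tested genes. The median log2 fold change of the 13 was 1.27 for it, against −0.03 over all tested genes, and 8 of the 13 values were positive. Some of the 13 had few counts per library, among them Crabp2 (0 to 23), Stra6 (0 to 33) and Lrat (0 to 24), so this median is imprecise. Cd38, an enzyme of the cell surface that consumes NAD, had 39.7, 35.0 and 51.8 CPM in Tumor-CD40 and 31.2, 16.6 and 26.6 CPM in NoTumor-CD40 libraries, against 11.5, 18.9 and 6.25 CPM in Tumor-NoCD40 and 17.8, 12.4 and 11.9 CPM in NoTumor-NoCD40 libraries. The Tumor-CD40 libraries lay above all others, and the NoTumor-CD40 libraries overlapped those without agonist. Its log2 fold change was 1.31 ± 0.24 (SE) averaged and 1.79 ± 0.34 with tumor (edgeR adjusted p = 0.0106 and 0.0301). The call with tumor was lost without Tumor-CD40 library 1 or 3, Tumor-NoCD40 library 1 or 3, or NoTumor-NoCD40 library 2 (1.48 to 1.83, adjusted p = 0.0506 to 0.151). B cells also carry Cd38, and the B cell sum, at 1233 to 3394 CPM in Tumor-CD40 against 224 to 463 CPM in Tumor-NoCD40 libraries, moved with it; its part was not tested.

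Tgm2, a transglutaminase, averaged over tumor states gave 1.27 ± 0.31 (SE, edgeR adjusted p = 0.0456). It had 12.2, 5.49 and 13.1 CPM in Tumor-CD40, 10.6, 5.58 and 7.81 in NoTumor-CD40, 3.68, 6.25 and 3.85 in Tumor-NoCD40 and 3.56, 4.03 and 1.48 CPM in NoTumor-NoCD40 libraries. The call held in 7 of 25 alternatives. It was lost without any 1 library other than Tumor-CD40 2, NoTumor-CD40 2 and Tumor-NoCD40 2 (1.13 to 1.41, adjusted p = 0.0635 to 0.127). The genes of this list with the most direct response in other cells had little or no signal: Cyp26a1, Cyp26b1 and Rarb are given above, and Dhrs3, which returns retinal to retinol, averaged 3.93 TPM with an averaged agonist value of 0.07 ± 0.23. The most abundant of the list were Asb2 (22.4 TPM), part of a ubiquitin ligase, and Ccr9 (6.85 TPM), the gut homing chemokine receptor, which plasmacytoid dendritic cells also carry; their values were −0.16 ± 0.46 and −0.44 ± 0.33 (adjusted p = 0.888 and 0.519).

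Of 16 genes known to respond to vitamin D 7 were tested. Vdr itself, a member, was the 1 past the threshold, in the agonist comparisons that chose it, and the median of the 7 for the averaged agonist effect was −0.31. Besides Cyp24a1, 5 of the 16 were at 0 in every library: Trpv6, S100g, Bglap, Fbp1 and Camp. Spp1, which encodes osteopontin, averaged 5.18 TPM and had a log2 fold change of −1.33 ± 0.36 (SE) for the averaged agonist effect (edgeR adjusted p = 0.0713), and Nrip1, a corepressor, averaged 3.76 TPM with 0.03 ± 0.19.

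The genes whose log2 CPM ran most like that of Vdr over the 12 libraries, among tested genes of at least 5 CPM on average, were Bcl2l14 (Pearson r = 0.985), Ccdc6 (0.985), Cdk5r1 (0.982), Oasl1 (0.979) and Capn5 (0.978). With the group means taken out, r was 0.93, 0.86, 0.88, 0.80 and 0.87. For Aldh1a2 they were Alas1 (0.794), Sod3 (0.787), Rnps1 (0.768), Tubgcp5 (0.768) and Top1 (0.761), with 0.45, 0.53, 0.35, 0.12 and 0.64 once the group means were taken out. The highest r was thus lower for Aldh1a2 than for Vdr. Both genes were chosen on group patterns, which enter r. The averaged agonist effect called 454 genes and the averaged tumor effect 3, so more genes share the pattern of Vdr. Values with the group means taken out are for genes picked on r over the same libraries. For Cyp27b1, which rests on counts in 5 libraries, they were Pphln1 (0.837), Tfb2m (0.793), Med21 (0.792), Gm43444 (0.777) and Armc6 (0.773). These are descriptions of libraries that share their groups and depth.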

How the data were processed

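RNA of 12 cDC1 libraries was sequenced. Per the labels' protocols, a Qiagen RNeasy Plus Micro kit yielded total RNA, and the NEBNext Ultra II Directional kit, which keeps strand, made the libraries. Per the submitters' processing notes, Salmon was used with mm10; the deposited tables' name speaks of sailfish, and versions and annotation release are not given in the sources used here. The authors deposited expected counts per transcript, not normalized, and a table of TPM was deposited by the authors too, scaled for length and to one total.

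Of 136288 transcripts, 136176 were assigned to 53458 genes with GENCODE M21 (GRCm38, the mm10 build); the other 112 held 0.0279% to 0.0457% of a library's counts. The members have 45 transcripts. Values were summed per gene and expected counts rounded. In R 4.3.3 and edgeR 4.0.16, TMM normalization (factors 0.936 to 1.074) and filterByExpr (minimum count 10, total 15) left 18095 genes, fitted over 4 groups with 8 residual degrees of freedom by two-sided quasi-likelihood tests (legacy = FALSE), with Benjamini-Hochberg adjustment over all genes and a threshold of 0.05. Dividing the size of the log2 fold change by the root of F gave the SE, and intervals are at 95%. The common biological coefficient of variation was 58.4%. The averaged contrasts are means of the 2 agonist or the 2 tumor contrasts. TPM fits in limma 3.58.1 and counts in DESeq2 1.42.0 were alternatives. The code was checked on simulated data.

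The members, gene lists, comparisons and alternatives were chosen with earlier results of these data known. Named genes are all members, list genes past the threshold in any of the 7 contrasts, up to 4 further genes per list by mean TPM, and the 5 genes most correlated with Vdr, Aldh1a2 and Cyp27b1. Of the list genes past the threshold, 1 is not reported here. Rarb, Rxrg, Crabp1, Cyp2r1, Aldh1a1, Aldh1a3, the CYP26 genes and the list genes at 0 were named after their values were seen. Titles carry a date-like prefix. The 15 pairs of libraries that share one had correlations of their deviations from group means of 0.00 to 0.23, not all over 0.1, so it was not taken to pair libraries; NoTumor-NoCD40 library 3 is alone in its prefix.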

Additional observations from a re-analysis of the deposited data

How the results depend on the processing

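With the CD40 agonist in tumor-bearing mice, the 124 genes called by edgeR became 200 with no filter, 61 with legacy = TRUE, 316 with DESeq2, 36 with limma-voom, 29 and 21 with limma on log2(TPM + 1) and log2(TPM + 0.1), 16 without the filter on TPM, 30 with counts from abundance, 54 with protein-coding transcripts only, 229 with the title prefix as a block, 25 in a fit of the 2 groups compared, 69 without both libraries of lowest cDC1 identity sum (an alternative chosen after seeing the data) and 26 to 226 with 1 library left out. Without tumor, in the same order, the 261 became 401, 198, 913, 120, 31 and 29, 23, 27, 204, 48, 173, 72 and 22 to 947. For the tumor with agonist the 36 became 89, 0, 166, 0, 12 and 6, 7, 9, 0, 83, 3, 2 and 0 to 71, and 22 with a mean of at least 1 CPM. For the tumor without agonist the 0 became 1 with no filter, 29 with DESeq2, 8 without the filter on TPM, 2 without both libraries and 0 to 2 with 1 left out. Averaged over tumor states the 454 agonist calls became 962 with DESeq2, 295 with limma-voom, 133 and 149 on TPM, 42 without the filter on TPM, 165 with counts from abundance and 221 to 870 with 1 left out. The 3 averaged tumor calls became 36 with no filter, 122 with DESeq2, 6 without the filter on TPM, 0 with at least 1 CPM, legacy = TRUE, limma-voom, log2(TPM + 0.1), counts from abundance or protein-coding transcripts, and 0 to 45 with 1 left out. The 0 interaction calls became 18 with DESeq2 and 2 and 7 on TPM. The causes were not tested.

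Members called moved as follows. The calls of Vdr for the agonist and of Aldh1a2 for the tumor are of genes chosen on those comparisons, so they are a description and not a test. Vdr, the 1 member called for the agonist with tumor, was lost (0) with limma-voom, the 3 TPM fits and counts from abundance and, leaving out 1 library, ranged from 0 to 1: it was lost without Tumor-CD40 library 2 or 3 or Tumor-NoCD40 library 1 or 3. Without tumor there were 2 (Rxra also) with DESeq2, 0 on TPM without the filter, and 1 to 2 with 1 left out. Aldh1a2 made 1 call for the tumor with DESeq2 in both single comparisons and, without agonist, with no filter or without both libraries (0 to 1 with 1 left out). For the averaged agonist effect 2 became 1 with legacy = TRUE, limma-voom, the TPM fits, counts from abundance, protein-coding transcripts, the title prefix as a block and without both libraries, and 1 to 2 with 1 left out; Vdr passed in 25 of 25 alternatives. For the averaged tumor effect Aldh1a2 passed in 10 of 25, becoming 0 with at least 1 CPM, legacy = TRUE, limma-voom, the TPM fits, counts from abundance or protein-coding transcripts, and 0 to 1 with 1 left out.

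Of 36 single fold changes, 18 kept direction and side of the threshold under every alternative run. Signs turned only for values that were not called. Aldh1a2 for the agonist without tumor became −0.03 with the prefix as a block and, with 1 library left out, ran from −0.24 to 0.43, below 0 without NoTumor-CD40 library 1 or 2 or NoTumor-NoCD40 library 2 or 3. Rxra for the tumor with agonist became −0.21 without both libraries, and ran from −0.21 to 0.38 with 1 left out, below 0 without NoTumor-CD40 library 3 or Tumor-CD40 library 1. The averaged tumor value became 0.14 without both libraries, and −0.30 to 0.13 with 1 left out, for Vdr; for Rarg −0.43, −0.51 and −0.43 on TPM, −0.76 with counts from abundance, −0.11 without both libraries, and −0.07 to 0.17 with 1 left out; and for Rdh10 −0.07 with protein-coding transcripts and −0.09 to 0.23 with 1 left out. The averaged agonist value of Rarg ran from −0.04, without Tumor-NoCD40 library 2, to 0.22 with 1 left out. The labels give no replicate numbers, so the block fitted was the title prefix, with the values given above. Depth limits Cyp27b1, Crabp2 and Cyp24a1, which had at most 26 counts in a library. With 3 libraries per group the precision of every fold change is limited.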
